A study of Homo sapiens with 2 samples.

Results

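The peaks described here were listed for DDX18 and annotated to the coding part of the first exon of spliced transcripts. They were taken from a list of significant peaks of an iCLIP experiment, which crosslinks a protein to RNA with ultraviolet light and maps the crosslinked sites. A peak belonged to the set when its deposited annotation named a coding exon with exon number 1 in a transcript of 2 or more exons, and each position was counted once. This gave 326 of the 16095 distinct positions in the list (2.03%, exact 95% binomial interval 1.81 to 2.26), from 347 of 17163 entries. They were called in 303 of 6695 genes.

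The cells were of H9, a long-established line of human embryonic stem cells. They carried 3XFlag-DDX18, which is DDX18 with a tag that an antibody recognises, and grew under normal culture on a layer of irradiated mouse embryonic fibroblasts (MEFs). The cells received ultraviolet light of 254 nm at 160 mJ/cm2 before DDX18 was pulled down through its tag. The 2 samples form 1 group, replicates 1 and 2, with nothing to say that they came from separate cultures, and no untagged, input or other comparison group was used here. The list holds 1 height per peak for both samples together, so no value has an error between replicates, and no test over samples could be made. Heights, expected heights, p-values, positions and distances are the authors' own, intervals cover counting error only, and the number of reads is unknown.

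DDX18 is a DEAD-box RNA helicase that is found in the nucleolus and takes part in making the large ribosomal subunit. The first exon of an mRNA carries the 5' untranslated stretch and, in many genes, the start codon with the first codons. In genes of secreted and membrane proteins these first codons often encode the signal peptide or first membrane segment, which the signal recognition particle reads as it leaves the ribosome. A few genes have a very long coding first exon, among them protocadherins.

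The exon label and the called gene were compared first. The annotated transcript belonged to a gene in which the peak was called at 316 positions and to another gene at 10. The strand of the annotated gene, taken from the genome build GRCh38.p14, was known for 246 positions. The hg19 peak lay on that strand in 242 and on the opposite one in 4, called in RPN2, FEZF1-AS1 and, with 2 positions, PDE4DIP. A gene whose orientation differs between the builds would also appear as opposite, which was not checked. The other positions had no strand entry in the gene tables used. The nearest start site was that of the annotated transcript itself at 251 positions. Transcripts had 2 to 65 exons, with a median of 9.

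Most first-exon peaks were low. Heights ran from 3 to 166 with a median of 8 (interval of the median 7 to 8, quartiles 6 and 11). A height of 5 or less was listed at 48 positions, 6 to 9 at 167, 10 to 19 at 90, and 20 or more at 21. The 326 heights summed to 3526, or 0.540% of the summed height of the list. The expected height, a value given once per gene, had a median of 0.08 (quartiles 0.03 and 0.21) and was listed at 0 for 7 positions. The ratio of height to expected height had a median of 100 (interval 91.7 to 120), with expected heights listed at 0 set to 0.01. The deposited p-value was at its limit of 1e-100 for 49 positions and above 0.01 for 51.

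The highest first-exon peak was in ANKRD33B, which encodes an ankyrin repeat protein, with a height of 166 at position 10564742 of chromosome 5 on hg19, in exon 1 of 4. FADS2, a desaturase of the endoplasmic reticulum (ER) that makes polyunsaturated fatty acids, had a peak of 89 at position 61595967 of chromosome 11, in exon 1 of 12. PSAP, the precursor of the lysosomal saposins, had one of 79 at position 73610968 of chromosome 10, in exon 1 of 14. ZDHHC2, a palmitoyltransferase of membranes, had one of 74 at chr8:17014235-17014252, in exon 1 of 13. These 4 peaks stood at 307, 462, 114 and 407 nt from the nearest start site, so the highest peaks did not share a distance.

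PGRMC1, a haem-binding protein of the ER membrane, had one of 50 in exon 1 of 3, at chrX:118370351-118370353. SFRP2, a secreted binder of Wnt proteins, had peaks of 46 and 32 in exon 1 of 3, and its relative SFRP1 had peaks of 22 and 18. The ER lectin chaperone CALR had a peak of 42 at chr19:13049529-13049531, and the ER prolyl isomerase PPIB had one of 37 at position 64455085 of chromosome 15. CTSC, a lysosomal protease, and LAPTM4B, a lysosomal membrane protein, each reached 29. Cell-surface proteins followed with ITM2C (24), BSG (23) and GPC4 (22), a glypican.

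Among the other peaks of the highest 20, MIF, a cytokine made without a signal peptide, had 35, the actin-binding PFN1 had 26 and the mitochondrial chaperone HSPA9 had 21. Of the 20 highest first-exon positions, 16 lay in genes whose products enter the ER, the lysosome, the cell surface or the outside of the cell, against 11 of the 20 highest positions in internal coding exons, 15 in last coding exons and 17 in 5' UTRs. Counted by gene, these were 14 of 18 genes in first exons, 4 of 9 in internal exons, 11 of 16 in last exons and 13 of 16 in 5' UTRs. The assignment was made by hand from textbook knowledge after the values were seen, and the difference was not tested. MIF, which lacks a signal peptide, was counted outside the class. The share of such genes among all genes with a peak was not measured.

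**Figure D1:**
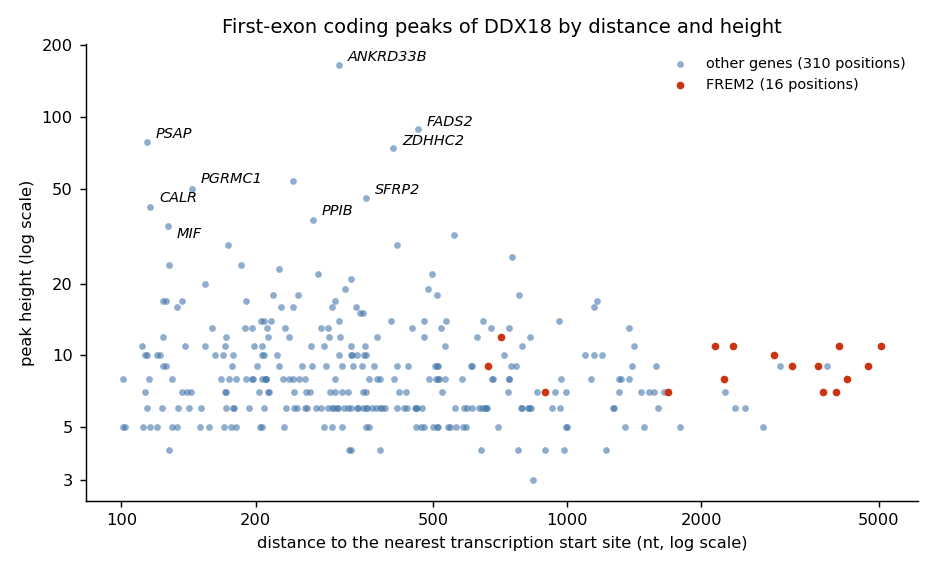
Each point is 1 of the 326 first-exon coding peaks, with its distance to the nearest start site in nt on the x axis and its height on the y axis, both on log scales. Names mark 9 of the 10 highest points, and the 16 peaks of FREM2 are in red and reach farthest from a start site, to 5046 nt.

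Exon number 1 adjoins a start site, so closeness to one follows from how the set was chosen, and the distances are a description. They are to the nearest annotated start site, which was not that of the annotated transcript at 75 positions. The nearest peaks stood at 101 nt, in RPRD1A and NUDT19, followed by TFB1M at 102, SLC2A6 at 111 and C3orf52 at 112 nt, with heights of 8, 5, 5, 11 and 5. The annotation program gives a position near a start site to a separate class before it considers exons, so the lower end of the distances follows from the labels. The median distance was 348 nt (quartiles 210 and 655). Within 500 nt lay 211 positions (64.7%, 59.3 to 69.9), and within 1000 nt 282 (86.5%, 82.3 to 90.0).

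The median height changed little with distance. It was 8 at 101 to 200 nt (70 positions), 8 at 201 to 300 nt (62), 8 at 301 to 500 nt (79), 7 at 501 to 1000 nt (71), 7.5 at 1001 to 2000 nt (26) and 9 beyond 2000 nt (18). Peaks of 20 or more numbered 8, 4, 7, 2, 0 and 0 in the same bins. Within 1000 nt lay 86.5% of all first-exon positions, so few such peaks could fall farther out, and a trend was not tested. The highest peak beyond 1000 nt had a height of 17 and was in SQLE, the squalene epoxidase of cholesterol synthesis, at 1165 nt. Of the 18 positions beyond 2000 nt, 12 were in FREM2, and only 6 genes had a peak there.

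First exons held 326 of 7512 coding-exon positions (4.34%, 3.89 to 4.83), against 794 in exon 2, 738 in exon 3 and 607 in exon 4. The count was lower in exon 1 than in each of exons 2 to 8 (373 in exon 8) and higher than in each of exons 9 to 15 (298 in exon 9 and 171 in exon 15). In transcripts of 2 to 4 exons, 67 of 481 coding positions were in the first exon (13.9%, 11.0 to 17.3), and in transcripts of 20 or more exons 62 of 3116 were (1.99%, 1.53 to 2.54). The length of coding sequence in each exon was not used here, so these counts are not densities. A further 22 coding positions lay in transcripts of a single exon and are not in the set.

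Median heights in first exons were close to those in the regions most like them. The median was 8 (7 to 8) in first exons, against 9 (8 to 9) in 6401 internal-exon positions, 8 (8 to 9) in 763 last-exon positions and 9 (8 to 9) in 363 positions in 5' UTRs. Of all positions in the list, 11.0% reached a height of 20. In first exons 6.44% did (4.03 to 9.68), against 9.44% in internal exons (8.73 to 10.2), 9.04% in last exons (7.10 to 11.3) and 11.0% in 5' UTRs (7.99 to 14.7). Each of these intervals overlaps that of first exons, which does not show that the shares are equal. The 11.0% of all positions lies above the first-exon interval. The ratio to the expected height had a median of 100 in first exons (91.7 to 120), against 77.8 (75 to 80) in internal exons, 75 (69.2 to 81.8) in last exons and 88.9 (77.8 to 100) in 5' UTRs. The median expected height was 0.08 (0.06 to 0.09) in first exons and 0.12 (0.11 to 0.12) in internal exons. The median ratio over all positions was also 100. No test over peaks was run, since peaks are not replicates.

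**Figure D2:**
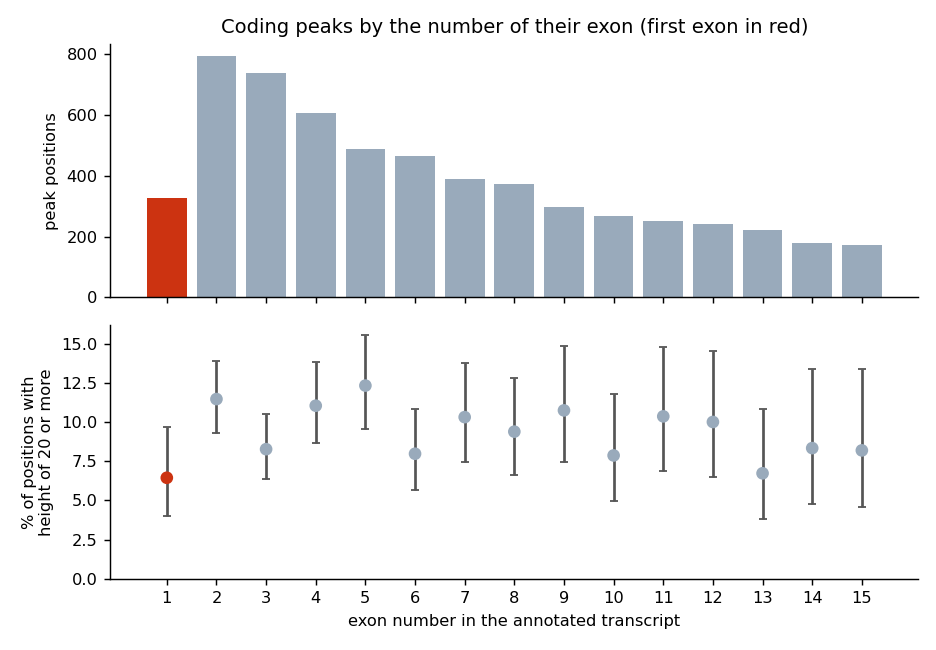
The upper bars give the number of coding peak positions in exons 1 to 15 of the annotated transcript, and the lower points give the share with a height of 20 or more with exact 95% binomial intervals. Exon 1, in red, has 326 positions, against 794 in exon 2 and 171 in exon 15. Its share of 6.44% has an interval that overlaps those of the other exons, which does not show that the shares are equal.

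First-exon peaks of 1 nt had a higher median height than wider ones. The median width was 12 nt (11 to 13) in first exons, and 28 positions (8.59%, 5.78 to 12.2) were 1 nt wide. Those had a median height of 13.5, and wider first-exon peaks one of 8. In internal exons the corresponding medians were 13 and 8, with 8.33% of positions 1 nt wide. Of the 20 highest first-exon positions 9 were 1 nt wide, among them those of ANKRD33B, FADS2, PSAP, PPIB, MIF and ITM2C and both peaks of SFRP2.

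FREM2, a basement membrane protein of the Fraser complex, had the largest number of first-exon peaks. Its 16 positions lay in exon 1 of 24, between 39261827 and 39266224 of chromosome 13 on the plus strand, at 664 to 5046 nt from the start site. In order of distance their heights were 9, 12, 7, 7, 11, 8, 11, 10, 9, 9, 7, 7, 11, 8, 9 and 11. The heights stayed within 7 to 12 over this stretch. The distances of neighbouring peaks to the start site differed by 45 to 790 nt, with a median of 275 nt. The 8 other peaks of the gene, in later coding exons, had heights of 7 to 12 with a median of 8, against a median of 9 in exon 1. FREM2 supplied 16 of the 26 first-exon positions on chromosome 13.

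**Figure D3:**
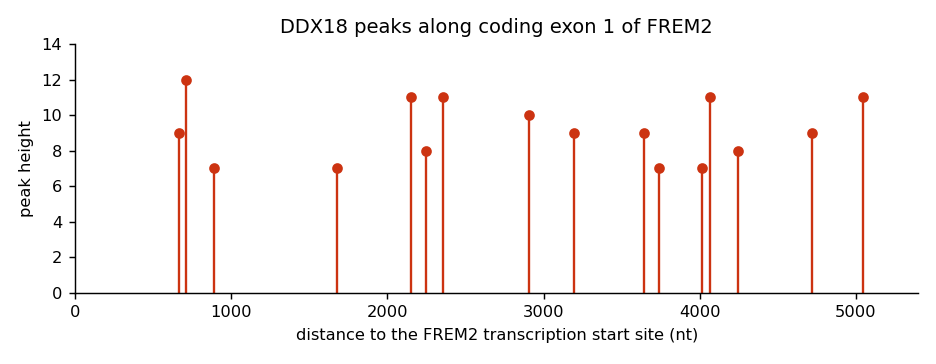
Each line is 1 of the 16 peaks in coding exon 1 of FREM2, at its distance from the start site in nt (x axis) with its height (y axis). Heights stay between 7 and 12 from 664 to 5046 nt.

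Few other genes had repeated first-exon peaks. A single position was found in 278 genes, 2 positions in 20, and 3 or more in 5, so that 25 of 303 genes had several (8.25%, 5.41 to 11.9). LEMD3, which encodes an inner nuclear membrane protein, had 4, at 140, 348, 1308 and 1399 nt, with heights of 7, 6, 8 and 9, and no peak elsewhere. CELSR1, a cadherin of planar cell polarity, had 3 of heights 6, 7 and 7 in exon 1 of 35. TCF20, a transcriptional coregulator, had 3 of height 9 each, and all of its listed peaks lay in exon 1 of 5. STT3B, a catalytic subunit of the oligosaccharyltransferase, had 3 of heights 8, 13 and 11 at 515, 742 and 791 nt. Genes with 2 included ARL6IP6 (10 and 7), GCNT2 (9 and 5), an enzyme of glycan branching, HM13 (9 and 8), the signal peptide peptidase, and JUP (6 and 6), called plakoglobin. The 2 JUP positions were annotated to exon 1 of another gene, KRT19.

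Most of the 303 genes also had a peak outside the first coding exon. The like share for genes with peaks in other regions was not measured. No peak elsewhere was listed for 80 of the 303 genes (26.4%, 21.5 to 31.7), and the other 223 had a median of 3 further peaks. A peak in an internal coding exon was listed for 153 of the 303 genes (50.5%, 44.7 to 56.3), against 40.4% of all genes with a peak, and one in a 3' UTR for 110 (36.3%, 30.9 to 42.0), against 28.1%. A peak in a last coding exon was listed for 48 (15.8%, 11.9 to 20.4), against 9.34%, one in a 5' UTR for 25 (8.25%, 5.41 to 11.9), against 4.96%, and one in an intron for 68 (22.4%, 17.9 to 27.6), against 34.1%. Start-site peaks were listed for 36 (11.9%, 8.46 to 16.1), against 10.8%, and with genes that share all their first-exon positions counted once for 24 of 283 (8.48%, 5.51 to 12.4), against 10.7%. All genes with a peak include the 303 themselves. Any gene among all of them can count through its only peak, whereas each of the 303 needs a further peak to count. The shares in each pair are therefore not on like terms, and their differences were not tested.

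Within a gene, first-exon peaks were about as high as those of its other coding exons. In the 164 genes with both, the median height in the first exon over that in the other coding exons had a median of 1 (0.923 to 1). It was above 1 in 65 genes (39.6%, 32.1 to 47.6), equal in 25 and below 1 in 74 (45.1%, 37.4 to 53.1). Of the 74, 12 were alpha protocadherin genes that share 1 first-exon position, each with 6, against 7. With genes that share all their first-exon positions counted once, 150 genes remained, with 63 above 1 (42.0%, 34.0 to 50.3) and 62 below (41.3%, 33.4 to 49.7), so the data gave no order between the counts. The first exon stood at 2 times or more in 6 genes and at 0.5 or less in 4.

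PSAP had 79 in the first exon, against a median of 22 over 12 peaks in other coding exons, which ranged from 14 to 38. PGRMC1 had 50, against 21.5 over 2 peaks. PPIB had 37, against 16 over 3 peaks. SEC63, a component of the ER protein translocation machinery, had 16, against 7 over 3 peaks, and COL26A1, a collagen, had 15, against 7 in 1 peak. TMED10, a cargo receptor of early secretory vesicles, had a median of 14, against 7 in 1 peak. These were the 6 genes at 2 times or more.

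At the other end, IGFBP2, a secreted carrier of growth factors, had 12 in the first exon, against 35.5 over 4 peaks. RCN2, a calcium-binding protein of the ER, had 11, against 34 in 1 peak. RTN3, a reticulon of the ER membrane, had 8, against 16.5 over 2 peaks, and CRTAP, which takes part in collagen hydroxylation in the ER, had 7, against 14 over 2 peaks. These were the 4 genes at 0.5 or less. Products of the ER or the secretory route thus stood at both ends. Between them, FADS2 had 89, against 55.5 over 10 peaks. CALR had 42, against 38.5 over 4 peaks, and SFRP2 had 39, against 36.5 over 4 peaks.

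**Figure D4:**
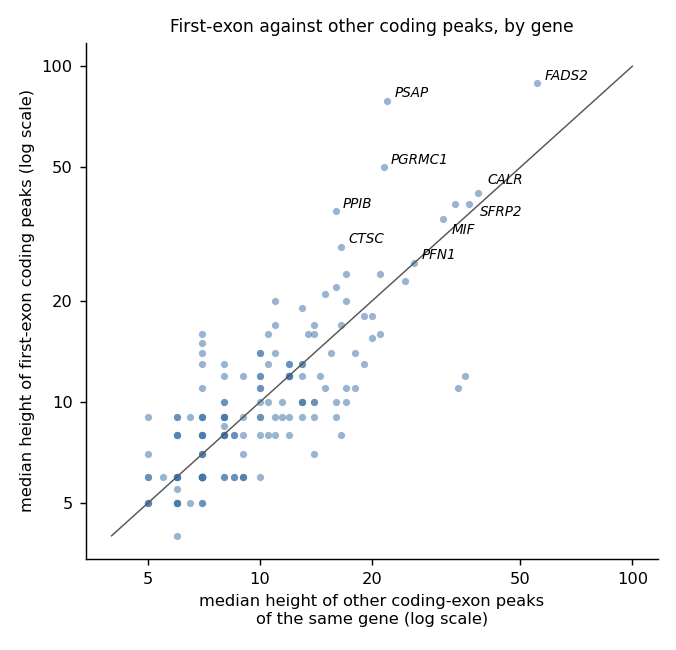
Each point is 1 of 164 genes, with the median height of its first-exon coding peaks on the y axis and that of its other coding-exon peaks on the x axis (log scales), and the line marks equal heights. PSAP, at 79 against 22, lies farthest above the line, and 65 genes lie above it and 74 below, of which 12 are 1 shared protocadherin position at 6 against 7.

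Set against all other peaks of the gene, the highest first-exon peak was the highest of the gene in 38 of 223 genes (17.0%, 12.3 to 22.6), tied in 26 and lower in 159. The highest of several peaks is set here against mostly 1, so this count leans to the other regions. UGT8, an enzyme of galactolipid synthesis, had 12 in the first exon, against 6 elsewhere. DAD1, a subunit of the oligosaccharyltransferase, had 13, against 7. PGRMC1 had 50, against 28, SEC63 had 16, against 9, and ADCY3, an adenylyl cyclase, had 9, against 6.

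Several of the largest ratios to the expected height were single peaks in genes with little other signal. ANKRD33B, with an expected height of 0.07, had a ratio of 2371, and ZDHHC2, with 0.06, one of 1233. Neither gene had another peak. ACSL6, an acyl-CoA synthetase, had a single peak of 17 and an expected height listed at 0, which gives a ratio of at least 1700. The histone gene H2BC18 had at least 800 (height 8), and the potassium channel gene KCNN2 had 700 (height 7). GALNT18, TMTC1, STK10 and TMEM38B had 600, and HS6ST3, RMND5A and GOPC at least 600, with heights of 6, and these 7 are tied. Expected heights are given to 2 decimals, so a ratio over an expected height of 0.01 is only as exact as that rounding. ANKRD33B, ZDHHC2 and ACSL6 also had high peaks in themselves, and the other 9 genes had heights of 6 to 8.

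Genes of ER translocation, N-glycosylation and folding recurred in the set, and their lists were written after the heights had been seen. Their counts and heights describe the set only. Of all 20056 protein-coding genes, 297 had a first-exon coding peak (1.48%). Among 38 genes of ER translocation and N-glycosylation, 11 had one (28.9%, 15.4 to 45.9), with a median height of 10.5 over 14 positions. They included DDOST (17), RPN1 (16), STT3B (13), TUSC3 (13), DAD1 (13) and RPN2 (10) of the oligosaccharyltransferase, SEC63 (16), SSR1 (7) of the translocon-associated complex, SRP68 (9) of the signal recognition particle, SEC11A (9) of the signal peptidase and HM13 (9). The RPN2 position was annotated to exon 1 of MROH8, a gene of the opposite strand. Among 36 genes of ER folding and early secretory sorting, 10 had one (27.8%, 14.2 to 45.2), with a median height of 11 over 13 positions. These were CALR (42), PPIB (37), P4HB (18), TMED10 (17), LMAN2 (15), QSOX1 (14), FKBP10 (11), KDELR2 (10), LMAN1 (8) and CRTAP (7).

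Among 44 genes of sterol and fatty acid synthesis, 9 had a first-exon coding peak (20.5%, 9.80 to 35.3), with a median height of 14 over 11 positions. They included FADS2 (89), SQLE (17), HACD3 (17), SREBF2 (11), the transcription factor of sterol genes, ACAT2 (11), HSD17B12 (10), ELOVL6 (9) and FADS3 (6). These 3 lists were written after the heights had been seen, so their counts describe the set and support nothing further. Their genes also had peaks in any region more often than protein-coding genes at large (31.0%), with 30 of 38, 30 of 36 and 35 of 44 genes. Among protein-coding genes with any peak, 4.78% had a first-exon coding peak, and among those of the 3 lists 36.7% (19.9 to 56.1), 33.3% (17.3 to 52.8) and 25.7% (12.5 to 43.3). Expression is not in the list, so its part in these shares was not tested.

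For the lists of nuclear and ribosomal genes given next, the exact interval of each share includes the 1.48% of all protein-coding genes. A gene can enter the set only with a coding first exon that reaches beyond the start-site class. How many genes of each list have one was not measured, so the counts do not compare genes that could enter. None of 89 cytosolic ribosomal protein genes had a first-exon coding peak (upper limit of the exact interval 4.06%), and 68 of them had a peak somewhere. For those 68 the upper limit was 5.28%, against 4.78% of protein-coding genes with any peak. None of 32 nucleolar structure and RNA polymerase I genes had one (upper limit 10.9%, 14 with any peak), and none of 38 Polycomb genes (upper limit 9.25%, 12 with any peak). Of 78 ribosome assembly factors 2 had one (2.56%), NHP2 (11), a protein of H/ACA particles, and SDAD1 (5). Of 76 chromatin remodelers and organizers 1 did, UHRF1 (5), and 59 had a peak somewhere. Among those 59 the share was 1.69% (0.0429 to 9.09), an interval that includes the 4.78% of protein-coding genes with any peak. Of 54 DEAD-box and DEAH-box helicases 2 did (3.70%), DDX17 (20) and DHX32 (6). DDX18 itself had no first-exon coding peak, and its 2 peaks, of 7 and 8, lay at the start site and in exon 4 of 14.

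Of 91 splicing factors and hnRNPs 4 had a first-exon coding peak, namely SFPQ (14), HNRNPL, HNRNPM and U2AF1 (10 each). Of 76 translation factors 2 did, EIF3K (14) and EIF4A3 (8). Of 80 histone genes 2 did, H2BC5 (13) and H2BC18 (8), and of 517 ZNF zinc finger genes only ZNF608 (8). Transcripts of a single exon, or without coding sequence in the first exon, cannot enter the set. How many histone and ZNF genes could enter was not measured, so no low share is read from these counts. Nuclear oxidative phosphorylation had 5 of 90 genes, led by NDUFA11 (11), COX6A1 (10) and NDUFC2 (9). NDUFC2 and NDUFC2-KCTD14 share 1 position, and the NDUFA11 peak was also called in FUT5. Mitochondrial ribosomal proteins had 2 of 78, MRPL17 (7) and MRPS9 (5). Chaperones had 2 of 88, CALR and HSPA9. Against the 1.48% of all protein-coding genes, these shares lie between 0.193% for ZNF genes and 5.56% for oxidative phosphorylation, and the intervals of all of them but ZNF genes and oxidative phosphorylation include the share of all genes. With the position shared by NDUFC2 and NDUFC2-KCTD14 counted once, oxidative phosphorylation had 4 of 90 (4.44%, 1.22 to 11.0), an interval that also includes it.

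Of 35 pluripotency factors 4 had a first-exon coding peak (11.4%, 3.20 to 26.7), against 1.48% of all protein-coding genes. A peak in any region was listed for 23 of the 35 (65.7%), against 31.0% of protein-coding genes. Among genes with any peak, the shares with a first-exon coding peak were 17.4% (4.95 to 38.8) and 4.78%. This list too was chosen with earlier results of these data known, so its shares describe the set only. Expression is not among the deposited values used here, so its part in these shares was not tested. ZIC2, a zinc finger transcription factor, had one of 16 in exon 1 of 3. TERF1, a telomere-binding protein that is high in stem cells, had 8 and FGF2, the growth factor that keeps these cells undifferentiated, had 7. Among marker lists, undifferentiated stem cell markers had 1 of 15 genes (TERF1), and 12 of them had a peak somewhere. Fibroblast or feeder markers had 1 of 15, COL1A2, with a peak of 13 in exon 1 of 52, and 7 of them had a peak somewhere. None of the 15 neuroectoderm, 15 mesoderm and 13 endoderm markers had a first-exon coding peak, and 3, 2 and 1 of them had a peak somewhere. The cells shared their dishes with mouse fibroblasts, and the part of mouse reads in the COL1A2 peak was not tested.

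The lists given next are set against 1.48% of all protein-coding genes with a first-exon coding peak and 31.0% with any peak. Apart from protocadherins, the exact interval of each share includes the 1.48%. Of 66 protocadherin genes 16 were named, but these came from 2 positions. One, of height 6 on chromosome 5, was called in 12 alpha-cluster genes and annotated to exon 1 of 4 of PCDHA12, and the other, of height 11, was called in 4 gamma-cluster genes and annotated to PCDHGB1. Collagens and laminins had 2 of 56 (3.57%, 0.435 to 12.3), COL26A1 (15) and COL1A2 (13). Plexins, semaphorins and ephrin genes had 2 of 53 (3.77%, 0.460 to 13.0), PLXNA1 (13) and EPHA7 (4). Solute carriers had 6 of 347 (1.73%, 0.637 to 3.73), led by SLC7A5 (13), SLC2A6 (11) and SLC6A6 (9). None of 14 LDL receptor family genes, 36 actins and tubulins or 39 HOX genes had one (upper limits 23.2%, 9.74% and 9.03%). Of these lists 12 (85.7%), 12 (33.3%) and 2 (5.13%) genes had a peak somewhere.

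**Figure D5:**
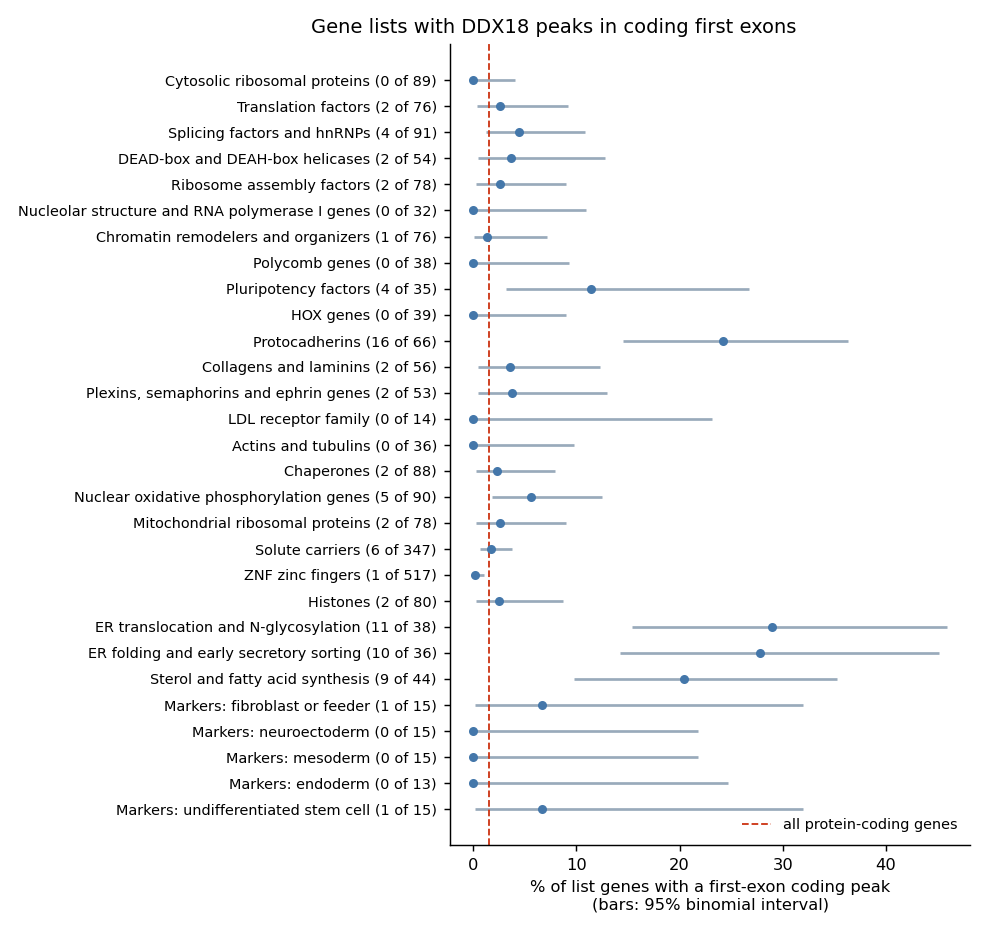
Points give the percent of genes in each list with a first-exon coding peak, bars its exact 95% binomial interval, and the dashed line the 1.48% of all protein-coding genes. The 3 lists of the ER and of lipid synthesis stand at 20.5% to 28.9%, and protocadherins at 24.2% from 2 positions. Those 3 lists were written after the heights had been seen, so their place above the line supports nothing further. The other lists, pluripotency factors among them, were chosen with earlier results of these data known, so their places describe the set only. Ribosomal protein, nucleolar, Polycomb, HOX, LDL receptor and actin and tubulin genes stand at 0, each with an interval that includes 1.48%. How many genes of each list have a first exon that could enter the set was not measured.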

How the data were processed

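Per the submitters' processing notes the tools were FastQC 0.10.1 and BWA with the hg19 build, and per the file headers the peaks were annotated on hg19 with annotatePeaks.pl of HOMER, which does not read strand. How peaks were called and tested is not given in the sources used here. The authors deposited 1 height per peak, a whole-number signal with no stated scaling, beside an expected height and a p-value. The called gene was named by its Entrez identifier through the RefSeq gene table of GRCh38.p14 (6677 of 6695 matched), from which no coordinates were taken. The strand of the annotated gene was also taken from GRCh38.p14, while peak strands are on hg19. Where a position was called in several genes, the gene of the annotated transcript was kept for its ratio. List counts use every called gene. Shares carry Clopper-Pearson intervals and medians order-statistic intervals, both at 95%, computed with Python 3.11.15, pandas 2.3.3 and scipy 1.17.1 and tested on simulated data.

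The members, the 21 gene lists, the 5 marker lists and the 3 lists added later were chosen with earlier results of these data known. Named are the 20 highest positions, the 10 largest ratios with ties, the 10 genes with most positions, the 5 nearest and 5 farthest positions, up to 3 genes per list, the 5 genes that most exceed their other peaks, and DDX18. Some items that this rule names are not reported here. Further genes were named after their values were seen. Sequences under the peaks were not used here.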

Additional observations from a re-analysis of the deposited data

How the results depend on the processing

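Of 88 recomputed values of the main results, 71 stayed within their interval or within 1.5 times the count, and 17 did not. With p-values up to the median of the list, 162 positions in 147 genes remained, the median height was 10, the share of genes with no peak elsewhere 32.7%, the share of protein-coding genes 0.723%, and 44 list genes were named, against 82. With heights of 10 or more there were 111 positions in 104 genes, 3.55% of coding-exon positions, a median ratio of 45.7, a median distance of 302 nt, 21.2% of genes with no peak elsewhere, 0.519% of protein-coding genes and 43 list genes. These filters keep fewer peaks by construction. With p-values up to 0.01 the share of protein-coding genes was 1.28%. When each position was given to the gene whose start site lies nearest, 37.5% of genes had no peak elsewhere, and the highest peak was in the first exon in 23.2%. The cause of these 2 changes was not tested. Of 174 list counts 32 moved. Protocadherins fell to 2 genes under either rule that ties a position to its annotated transcript or nearest start site, and pluripotency factors to 0 with p-values up to the median. ER translocation genes numbered 7 with heights of 10 or more. Chosen after seeing the data, leaving out FREM2 gave 310 positions and a median distance of 330 nt, and keeping the strand of the annotated gene, where known, gave 242 positions. Counting genes that share all their positions once, also chosen after seeing the data, gave 283 genes and left 2 protocadherins.

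No paired analysis was possible because the list holds no value per replicate, and for the same reason no fit without a replicate was made. Depth is unknown here, so a missing peak in a first exon says nothing about weaker contacts.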

Other observations

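At the 10 positions annotated to exon 1 of a gene other than the called one, the called genes were RPN2 (height 10), SPPL2B (12), SUCLA2 (6), JUP (6 at both positions), NT5C1B-RDH14 (5), the antisense RNA gene FEZF1-AS1 (6), the transcribed pseudogene RPSAP52 (4), the miRNA gene MIR548O2 (6) and the snRNA gene RNU5F-1 (5). The last 4 were the only positions of the set called in no protein-coding gene. PDE4DIP, a scaffold protein of the centrosome, had 2 positions of height 4 that were also assigned to LOC653513. On hg19 they lay on the strand opposite to the one listed for the gene on GRCh38.p14. Whether the gene has the same strand on both builds was not checked.

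Further peaks of cell-surface and matrix genes in first exons included ITGA6 (16), a laminin receptor subunit, ADAM10 (14), a sheddase, AGRN (13), a basement membrane proteoglycan, EPCAM (12), a surface protein of epithelial and stem cells, and CD9 (10), a tetraspanin. They were named after their values had been seen.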
